A study of Mus musculus with 4 samples.

Results

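Egr1, Egr2, Egr3, Nab1, Nab2, Ier2, Ier3 and Ier5 are immediate early genes, which cells transcribe within minutes to hours of a signal without first making new protein. They were followed through the first 3 h of culture of CD4+ T cells toward induced regulatory T (iTreg) cells. The members are these 8 genes, taken by name from the 32498 genes with values on the array. All but Nab1, 7 genes, have at least 1 probe there under that name, which gave 11 probes in all, and no signal of Nab1 was analysed here. Messenger RNA was measured on 4 single-colour mouse arrays, 1 per condition: naive T cells and iTreg cells at 3 h, each from WT and from Nr4a-TKO. The naive T cells were sorted from spleen and lymph nodes as CD4+ cells with low CD25 and CD44, high CD62L and no Foxp3. WT cells came from irradiated Rag2-/- mice that had received WT marrow. Nr4a-TKO cells came from Rag2-/- mice that had received a mixture of WT and Nr4a-TKO marrow. In the sort, a surface marker of the marrow donors set the Nr4a-TKO cells apart from the WT cells of that mixture. Both kinds of cells were taken 6 weeks after the transfer. The kind of chimera and the genotype thus cannot be told apart. Nr4a-TKO cells carry floxed alleles of Nr4a1 and Nr4a2 and are Nr4a3-/- on the C57BL/6J background, with a Foxp3 hCD2-hCD52 knock-in from the marrow donors, and the Cre driver of these cells is not given in the sources used here. Mice were 6 to 8 weeks old, and whether animals were pooled for an array is not given in those sources. The iTreg cells were the same kinds of naive T cells after 3 h on plate-bound anti-CD3 at 2 µg/ml and anti-CD28 at 0.5 µg/ml, with IL-2 at 10 ng/ml, TGF-β1 at 0.2 or 0.5 ng/ml and antibodies that neutralise IFN-γ and IL-4.

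The Egr proteins are zinc finger transcription factors that bind GC-rich sites in DNA. In T cells, a route from the antigen receptor to Egr genes runs through the kinases Raf, MEK and ERK to Elk factors bound with SRF at CArG boxes. It is not the only route, and the share of each in the induction of Egr1, Egr2 and Egr3 was not tested. Egr1 takes part in the activation programme, while Egr2 and Egr3 are known for genes that restrain T cells, including those of anergy. Nab1 and Nab2 are corepressors that bind Egr proteins, and Nab2 is itself a target of Egr factors, which closes a feedback loop. Ier2 and Ier5 are small related nuclear proteins, and Ier3 is a stress-induced protein linked to cell survival and ERK signalling. Members of the Ier group bind the phosphatase PP2A.

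Promoter sequences are shown for the member with the largest change, Egr2, and for a member of each of the other classes, Nab2 and Ier5. They are the 250 bases before an annotated start, read 5′ to 3′ on the strand of the gene, from RefSeq on GRCm38.p6, while all probe positions given further on are on mm9. Promoters of 5 members were matched in that source. Capitals mark CArG boxes, CRE cores (TGACG), Egr sites (GCGTGGGCG or GCGGGGGCG), the Nr4a site AAAGGTCA and the Ets site AGGAAG, each searched on both strands. The Egr2 window lies at chr10:67537620-67537869 on the plus strand, the Nab2 window at chr10:127666704-127666953 on the minus strand and the Ier5 window at chr1:155099637-155099886 on the minus strand.
Egr2: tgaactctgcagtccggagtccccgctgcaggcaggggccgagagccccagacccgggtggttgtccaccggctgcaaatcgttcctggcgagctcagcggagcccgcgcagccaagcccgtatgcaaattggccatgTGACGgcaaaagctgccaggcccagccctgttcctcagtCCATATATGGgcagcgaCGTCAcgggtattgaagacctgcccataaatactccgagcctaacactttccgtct
Nab2: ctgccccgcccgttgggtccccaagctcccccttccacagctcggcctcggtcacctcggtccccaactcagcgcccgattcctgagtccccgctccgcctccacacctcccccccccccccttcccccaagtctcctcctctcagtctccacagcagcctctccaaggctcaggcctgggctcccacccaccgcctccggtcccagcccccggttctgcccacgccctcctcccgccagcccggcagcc
Ier5: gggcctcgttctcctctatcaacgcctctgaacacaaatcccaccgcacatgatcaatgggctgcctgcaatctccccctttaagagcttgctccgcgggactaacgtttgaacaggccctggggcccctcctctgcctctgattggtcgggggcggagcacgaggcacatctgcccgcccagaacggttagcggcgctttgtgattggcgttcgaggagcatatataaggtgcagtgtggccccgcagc
The Egr2 sequence holds a CArG box, CCATATATGG, whose first base is at -73 from the start, with CRE cores on either side of it, the nearer to the start beginning at -56. None of these capitals overlap. RefSeq has 5 start sites for Egr2, and 4 of their 300-base windows, which run 50 bases past the start, hold a CArG box. These 4 are not separate sites. The windows that begin at 67537619, 67537620 and 67537680 overlap and hold the same box, CCATATATGG, and the window that begins at 67537316 holds CCTTTTTTGG. Of all 32851 promoter windows of 300 bases, 1.63% hold a CArG box, and 20.8% hold a CRE core. The windows of Nab2 and Ier5 hold none of the motifs searched. Of the other members matched, the Nab1 window holds 3 Egr sites and 1 CRE core, and the Ier3 window holds 1 Ets site. An Egr site is found in 3.47% of all windows, the Nr4a site in 1.51% and the Ets site in 35.4%. A match describes letters in these windows only.

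The 4 arrays were on 1 slide and read in 1 scan. On each, between 64.9% and 67.6% of 56605 probes were well above local background, and no spot was saturated. With 1 array per condition there is no spread between replicates and no test, and the number of arrays limits the precision. Within an array, repeated spots of a probe with 5 or more of them had a median SD of 0.12 in log2 signal, from which the SD of a difference between 2 arrays comes to 0.17 and that of a difference between 2 changes to 0.24. For log2 levels below 6 these became 0.25 and 0.35. This covers the array and not the mice or cultures. The targeted genes were read as a check of the labels. Nr4a1, an orphan nuclear receptor induced by the antigen receptor, had a log2 signal of 7.04 on the array labelled WT naive T, 8.38 on the naive array labelled Nr4a-TKO, and at 3 h 11.33 and 11.81 on those labelled WT and Nr4a-TKO. At 3 h, Nr4a1 and both probes of Nr4a2 had higher signals under the label Nr4a-TKO, by 0.48, 1.38 and 1.37. This is not the direction that a loss of transcript would give. Of the 3 Nr4a3 probes, log2 differences of -1.85 and -1.46 had that direction and 1 of 0.19 did not. Whether these probes lie in the parts that the alleles lack was not analysed here. They thus neither bear out nor contradict a deletion or the labels. The arrays are named by their labels throughout, and every direction between genotypes rests on them.

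Egr2 had the largest rise of the members in both genotypes. The single Egr2 probe (NM_010118, mm9 chr10:67004758-67004817) gave a scanner signal of 909 for WT naive T and 1311 for Nr4a-TKO naive T, and of 8073 for WT and 8781 for Nr4a-TKO at 3 h. After normalization across arrays, its log2 signal was 9.98, 10.53, 12.81 and 12.98 in the same order. Both arrays of cultured cells were above both naive arrays. Egr2 rose by a log2 change of 2.82 in WT, or 7.08-fold, and by 2.45 in Nr4a-TKO, or 5.46-fold. Among all genes measured, 99.5% had a lower change than Egr2 in WT and 99.4% in Nr4a-TKO.

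Egr1 was the brightest probe of the members in naive T cells, although probes of different genes cannot be compared as amounts of RNA. Its log2 signal (NM_007913) was 11.06 in WT naive T, 11.41 in Nr4a-TKO naive T, 12.41 in WT at 3 h and 12.78 in Nr4a-TKO at 3 h. The scanner signals behind these were 2007, 2504, 6385 and 8052. The order is again both naive arrays, then both cultured arrays, with the array of Nr4a-TKO above that of WT at each stage. Egr1 rose by 1.35 in WT and 1.37 in Nr4a-TKO, or 2.55-fold and 2.58-fold.

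Egr3 was covered by 3 probes, which all lie in the same stretch of mm9 chromosome 14. The probe that represents the gene (NM_001289925, from 70482361 to 70482420) had log2 signals of 6.58 in WT naive T, 7.24 in Nr4a-TKO naive T, 8.28 in WT at 3 h and 8.26 in Nr4a-TKO at 3 h. The second (NM_018781, from 70478827 to 70478886) gave 6.19, 7.17, 8.17 and 7.93 in the same order. The third (from 70481979 to 70482038) was not well above background in WT naive T, where it read 3.80, and gave 4.85, 5.86 and 5.81 on the others. All 3 probes place WT naive T lowest, Nr4a-TKO naive T next and both cultured arrays highest. Egr3 rose in WT by 1.70 on the representing probe, by 1.98 on the second and at least 4.18-fold on the third. In Nr4a-TKO the same probes gave changes of 1.02, 0.76 and 0.96, of which only the first is past 2-fold. That call was lost with a normexp offset of 50 (0.82), without background correction (0.93) and with the mean of all probes (0.91).

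**Figure D1:**
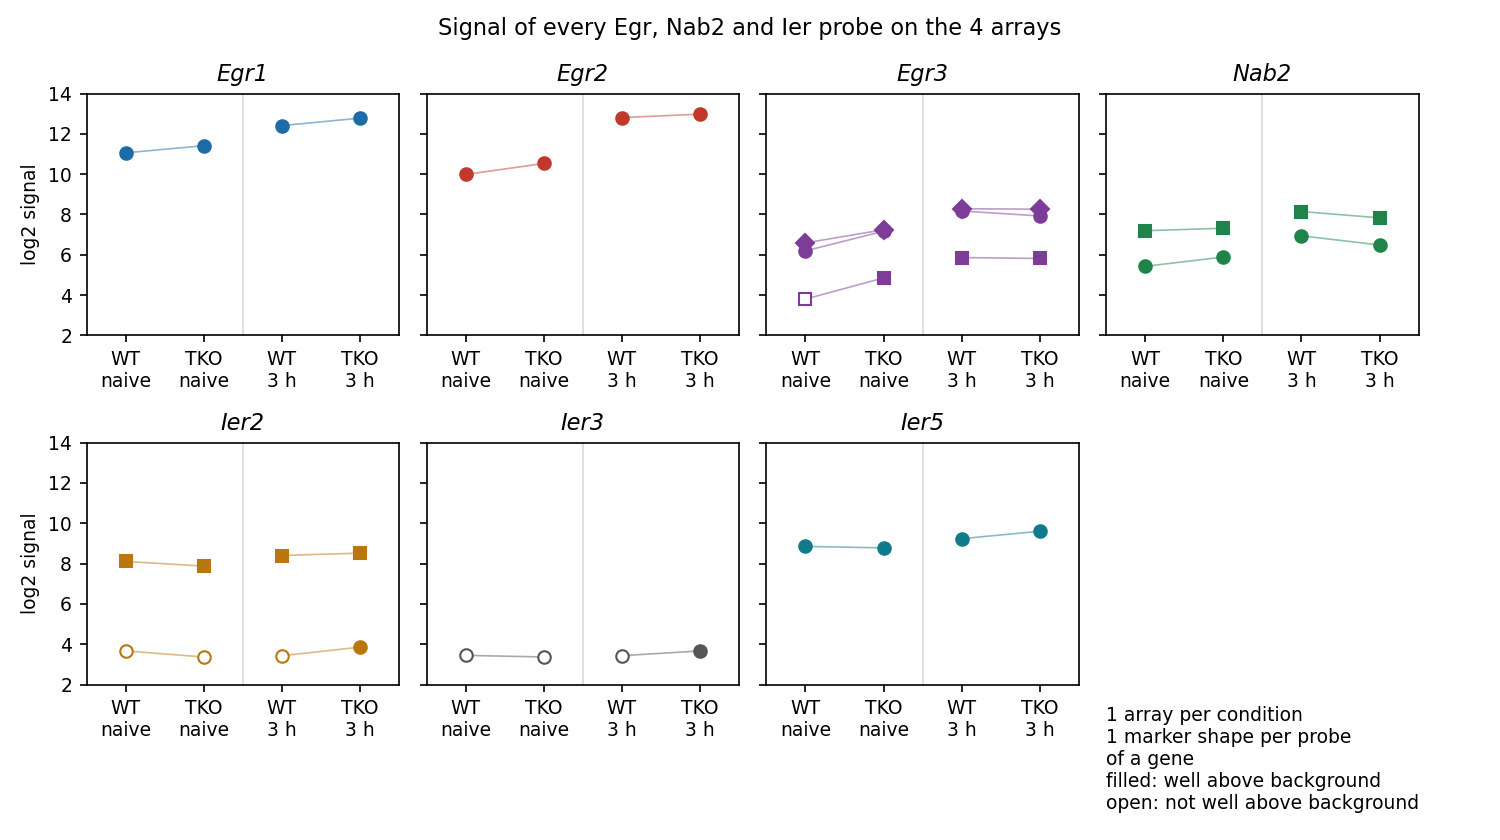
Log2 signal (vertical axis) of every Egr, Nab2 and Ier probe on the 4 arrays (horizontal axis), with 1 panel per gene and 1 marker shape per probe, and open markers for signals that were not well above background, which were set no lower than the array's floor. Egr1, Egr2 and Egr3 stand higher on both arrays of 3 h than on both naive arrays, while Ier3 stays near 3.4 on all but 1 array.

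Nab2, the corepressor of Egr proteins, was covered by 2 probes on mm9 chromosome 10. The brighter one (NM_001122895, from 127101413 to 127101472) had log2 signals of 7.19 in WT naive T, 7.31 in Nr4a-TKO naive T, 8.14 in WT at 3 h and 7.83 in Nr4a-TKO at 3 h. The other (NM_008668, from 127098009 to 127098068) gave 5.42, 5.89, 6.94 and 6.48. On both probes WT at 3 h was the highest array and WT naive T the lowest. The representing probe changed by 0.95 in WT, just short of 2-fold, and by 0.52 in Nr4a-TKO. The other probe was past 2-fold in WT with 1.52, and changed by 0.59 in Nr4a-TKO. Nab2 was past 2-fold in WT after scaling to the 75th percentile (1.07), in the deposited values (1.09) and with the mean of both probes (1.23).

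None of the Ier genes passed 2-fold. Ier5 (NM_010500, mm9 chr1:156944778-156944837) had log2 signals of 8.85 in WT naive T, 8.78 in Nr4a-TKO naive T, 9.24 in WT at 3 h and 9.61 in Nr4a-TKO at 3 h. Its change was 0.38 in WT and 0.83 in Nr4a-TKO, and the latter became 1.04 after scaling to the 75th percentile and 1.06 in the deposited values, both past 2-fold. The brighter Ier2 probe (NM_010499, mm9 chr8:87185211-87185245) read 8.11, 7.88, 8.40 and 8.52 in the same order of arrays. Its change was 0.30 in WT and 0.64 in Nr4a-TKO. A second probe under the name Ier2 (AK032692, from 87183623 to 87183681) was well above background only in Nr4a-TKO at 3 h, with 3.86. Ier3 (NM_133662, mm9 chr17:35959528-35959587) was likewise well above background on that array alone, with 3.67 and a scanner signal of 6.74. On the other 3 arrays it had no measured level above the floor, which was between 3.37 and 3.45, so its change in Nr4a-TKO was at least 1.23-fold and no change can be given for WT. That Ier3 value is close to the floor of detection and is 1 spot on 1 array.

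In WT, 3 of the 6 members measured were more than 2-fold higher at 3 h (Egr1, Egr2 and Egr3) and 0 were lower. Over all 23224 genes measured in this comparison, 8.4% were higher by more than 2-fold and 8.55% lower. The median log2 change was 1.15 over the members and -0.05 over all genes. In Nr4a-TKO, the same 3 genes of 7 members measured were more than 2-fold higher and 0 were lower, beside 7.78% higher and 7.98% lower among 23713 genes. The median over the members was 0.83 there, and -0.02 over all genes. Every measured member had a positive change in both genotypes, although that of Ier3 in Nr4a-TKO turned to -0.10 after scaling to the 75th percentile and -0.08 in the deposited values. In such bulk samples, a change in the share of cells that express a gene and a change in RNA per cell cannot be told apart.

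**Figure D2:**
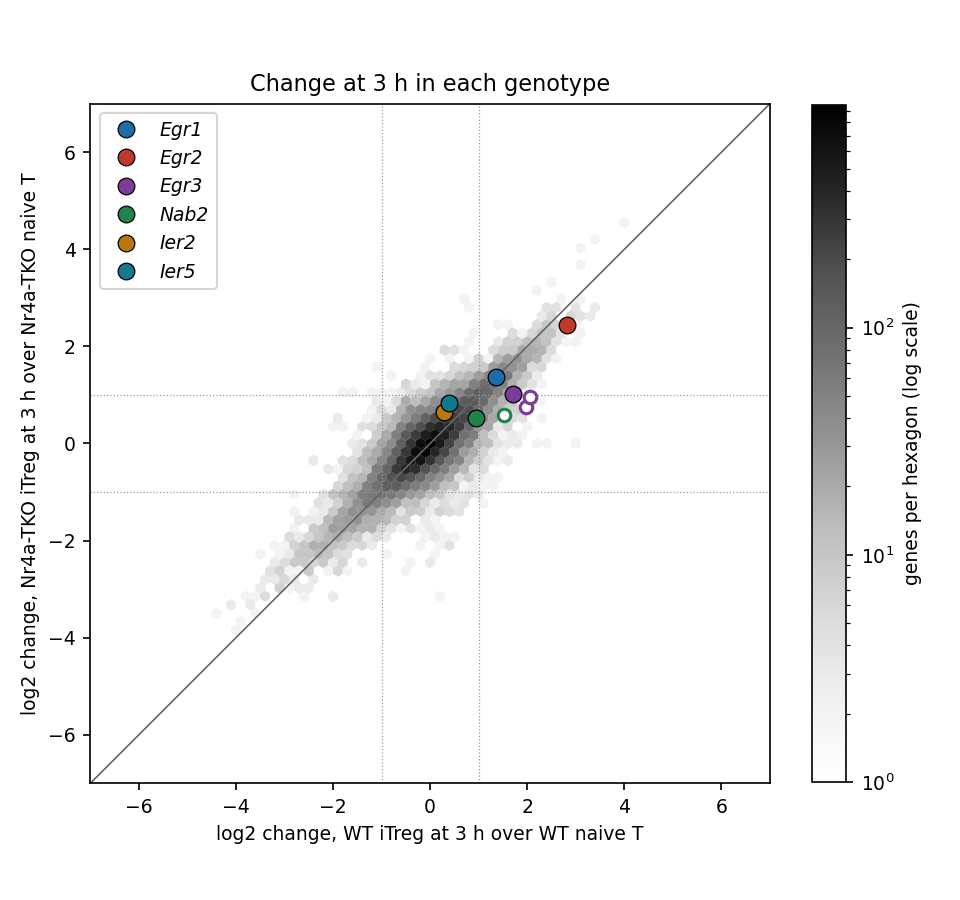
Log2 change over the 3 h of culture in WT (horizontal axis) against that in Nr4a-TKO (vertical axis), with all genes as grey hexagons on a log count scale, the probe that represents each member as a filled circle and its other probes as open circles. Egr2, Egr3 and Nab2 lie below the diagonal, Egr1 on it with 1.35 and 1.37, and Ier2 and Ier5 above it.

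Between the genotypes, no member was more than 2-fold apart at either stage. In naive T cells, 0 of 6 members measured were more than 2-fold higher in Nr4a-TKO and 0 lower, where 1.92% of 23111 genes were higher and 1.68% lower. The differences of Nr4a-TKO over WT were 0.66 for Egr3, 0.55 for Egr2, 0.35 for Egr1 and 0.12 for Nab2. All 3 Egr genes were thus higher on the naive array labelled Nr4a-TKO, by between 2 and 4 times the SD of a difference. The other Egr3 probes gave 0.97 and, as a bound, 1.05, so 1 of the 3 probes was past 2-fold where the representing probe was not. Ier5 and Ier2 had -0.07 and -0.23. Of all genes, 95.8% had a lower difference than Egr3 and 94.1% a lower one than Egr2.

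At 3 h, 0 of 7 members measured were more than 2-fold higher in Nr4a-TKO and 0 lower, where 1.74% of 23497 genes were higher and 1.93% lower. Egr1 was 0.37 higher in Nr4a-TKO, and so was Ier5. Egr2 differed by 0.17 and Egr3 by -0.02, each within the SD of a difference. The other Egr3 probes gave -0.24 and -0.05, so the Egr3 gap of the naive arrays was not present at 3 h on any probe. Nab2 was lower in Nr4a-TKO on both probes, with -0.31 and -0.46.

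**Figure D3:**
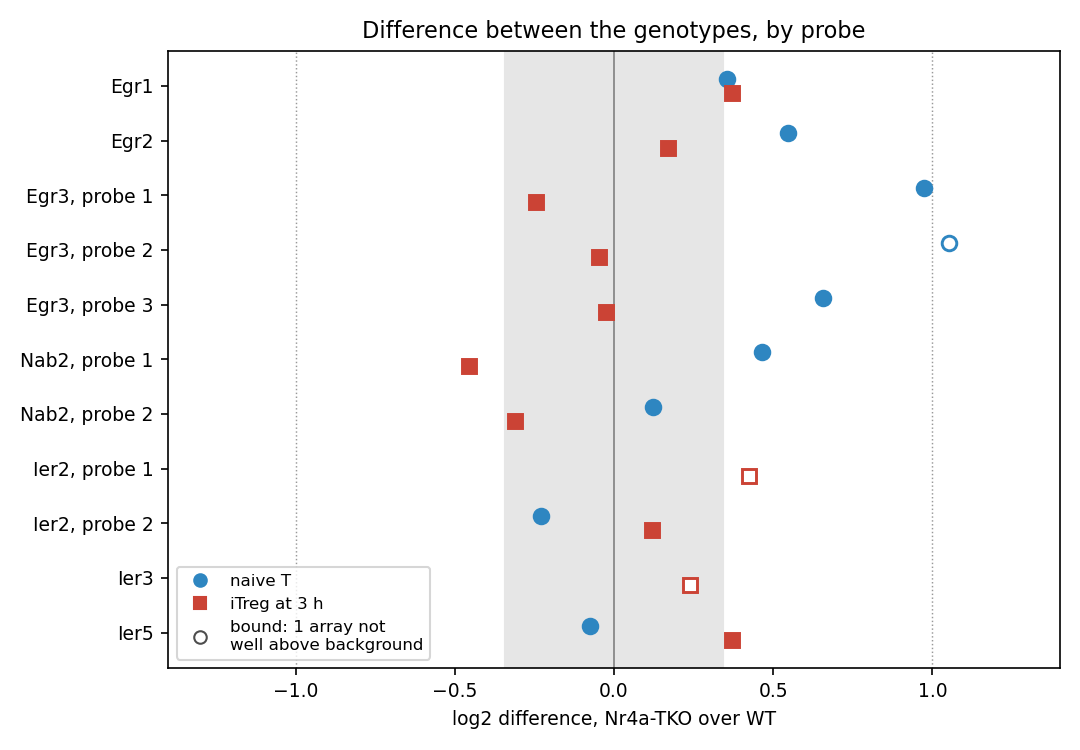
Log2 difference of Nr4a-TKO over WT (horizontal axis) for each probe (vertical axis, probes of a gene numbered by their position), in naive T as blue circles and in iTreg at 3 h as red squares, with open markers for bounds. The grey band is 2 SD of a difference from repeated spots within an array, and dotted lines mark 2-fold. The naive values of Egr1, Egr2 and Egr3 lie to the right of the band and their values at 3 h lie within it or, for Egr1, just outside.

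The change at 3 h was then compared between the genotypes. These values share all 4 arrays with the comparisons above and are not independent of them. No member's changes differed by more than 2-fold, with 0 of 6 higher and 0 of 6 lower, where 2.43% of 22262 genes had a higher change in Nr4a-TKO and 2.38% a lower one. The change in Nr4a-TKO minus that in WT was 0.02 for Egr1, -0.38 for Egr2, -0.68 for Egr3 and -0.43 for Nab2. For Ier2 and Ier5 it was 0.35 and 0.44. By gene, 3 of 6 members had a smaller change in Nr4a-TKO and 3 a larger one, and the median over all genes was 0.02. By probe, where genes with several probes count several times, 6 of 9 had a smaller change, which are all those of Egr2, Egr3 and Nab2. Of these, 2 Egr3 probes were past 2-fold, with -1.22 and -1.099, of which the second rests on a bound. The Egr3 value on the representing probe was among the lowest, with 5.40% of all genes below it. The smaller Egr3 change in Nr4a-TKO goes with its higher naive level there.

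Other genes of the same kinds set the members in context, from lists chosen with earlier results of these data known. Of 22 other immediate early genes, 12 rose and 6 fell in WT, and 10 rose and 6 fell in Nr4a-TKO. Their medians were 1.096 and 0.50, beside -0.05 and -0.02 over all genes. The rises counted include bounds, for Fosl1 in WT and for Maff in both genotypes. Over all genes, 8.4% rose and 8.55% fell in WT, and 7.78% rose and 7.98% fell in Nr4a-TKO. The largest rises in WT were those of Fosl2, a Fos-related AP-1 subunit, with 3.68, of Gadd45b, a stress-response gene, with 3.66 and of Dusp5, a nuclear ERK phosphatase, with 3.32. Among the rises of this list and of the members, Egr2 follows these 3 in WT. In Nr4a-TKO the largest rises on the list were Fosl2 with 3.83, Dusp5 with 3.38 and Atf3, a stress-induced transcription factor, with 3.28. The targeted Nr4a genes are also immediate early genes but are not on the list. On the representing probes, Nr4a1 rose by 4.29 in WT and 3.43 in Nr4a-TKO. Nr4a2 rose by 2.58 and 3.76, and Nr4a3 by 2.57 and 2.74. Fos and Jun, the classical AP-1 subunits, moved against the Egr genes. These 2 were chosen after their values were seen. Fos fell from a log2 signal of 7.77 in WT naive T to 5.38 at 3 h and from 8.08 to 5.36 in Nr4a-TKO. Jun fell from 8.05 to 4.92 and from 8.19 to 5.64. Between the genotypes, Dusp1, which inactivates MAP kinases, stood furthest apart at 3 h, with 8.86 in WT and 7.01 in Nr4a-TKO.

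**Figure D4:**
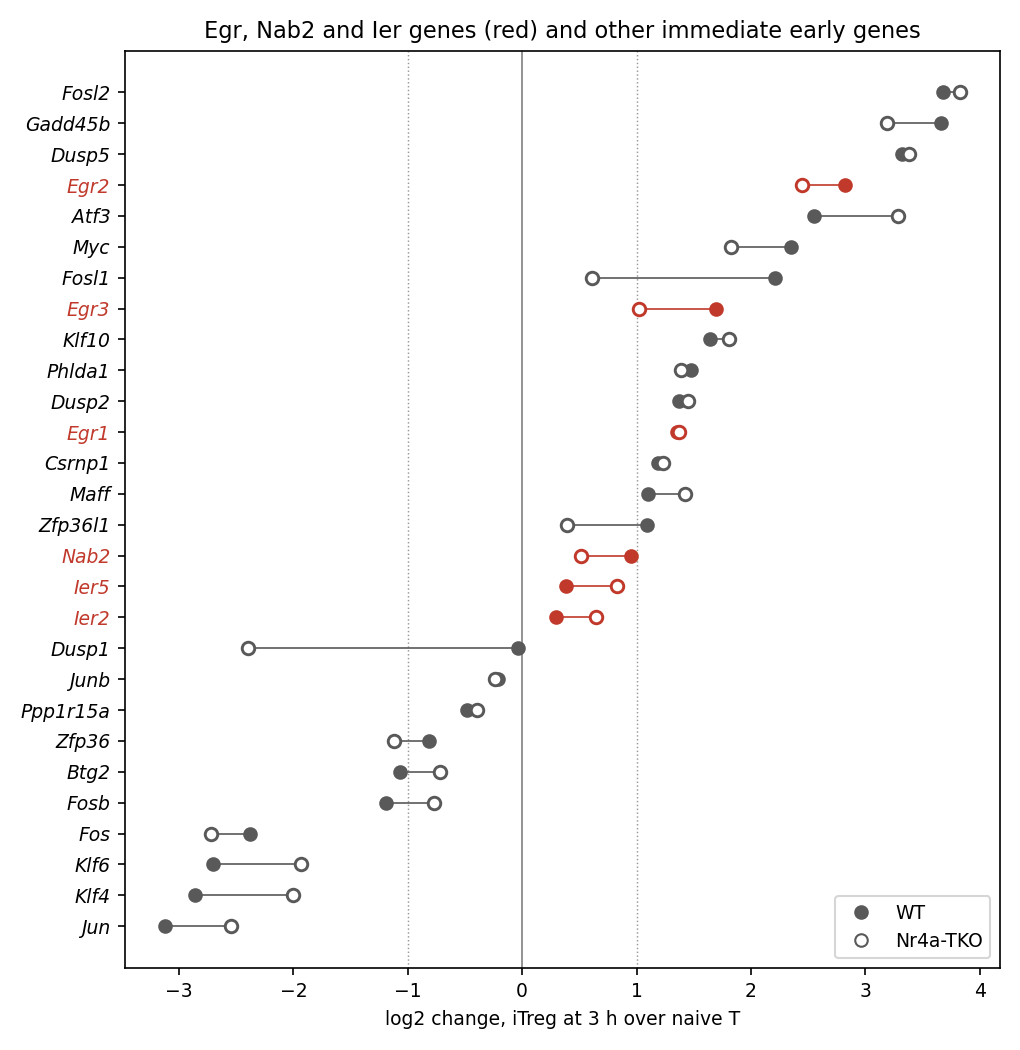
Log2 change over the 3 h of culture (horizontal axis) for the measured Egr, Nab2 and Ier genes in red and 22 other immediate early genes in grey, ordered by the change in WT, with WT as filled and Nr4a-TKO as open circles and dotted lines at 2-fold. Egr2 is the fourth from the top, with 2.82 and 2.45, and Jun is at the bottom, with -3.13 and -2.55. The Fosl1 change in WT and both Maff changes are bounds, and the targeted Nr4a genes are not drawn.

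Genes of the route through ERK to SRF, which is not the only route to the Egr genes, were read next. Of the 18 listed here, 0 rose and 1 fell in WT, with a median of -0.16, and 1 rose and 0 fell in Nr4a-TKO, also with a median of -0.16. Over all genes, 8.4% rose and 8.55% fell in WT, and 7.78% rose and 7.98% fell in Nr4a-TKO. Signalling through the route was not measured. Mapk3, which encodes ERK1, fell in WT by 1.13 on the log2 scale, and Elk3, an Elk factor that can repress, rose in Nr4a-TKO by 1.13. Srf itself changed by 0.24 and 0.06 and was chosen after its values were seen. Elk3 was 1.12 higher in Nr4a-TKO at 3 h, and Braf was lower by 1.20 on the log2 scale in naive Nr4a-TKO cells, with 8.45 in WT and 7.25 in Nr4a-TKO.

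Of 20 genes reported as targets of Egr2 and Egr3 in T cells, 7 rose and 3 fell in WT, with a median of 0.49. In Nr4a-TKO, 5 rose and 4 fell, with a median of 0.29. Over all genes, 8.4% rose and 8.55% fell in WT, and 7.78% rose and 7.98% fell in Nr4a-TKO. The direction in which Egr2 and Egr3 act on each target was not used, so these counts do not measure their activity. In WT, the cytokine gene Il2 rose by at least 3.36 on the log2 scale, and Socs3, which restrains cytokine signalling, and Cdkn1b, a cell cycle inhibitor, had log2 changes of -4.22 and -3.12. In Nr4a-TKO, Il2 rose by 4.21, the cell cycle inhibitor gene Cdkn1a by at least 3.08 on the log2 scale and Tnf by 3.01. At 3 h, Cblb, a ubiquitin ligase gene of anergy, was 10.50 in WT and 9.24 in Nr4a-TKO, a difference of -1.26, and Il2 was 7.09 and 8.28. In naive T cells, 3 of the 19 targets measured were more than 2-fold higher in Nr4a-TKO, namely Lag3, an inhibitory receptor, with 1.49, Bhlhe40, with 1.46 as a bound, and Ndrg1, with 1.03. The median difference of the 19 was -0.01, beside -0.02 over all genes.

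Close relatives of the members gave no change past 2-fold. Egr4, Wt1, Ier5l and Ier3ip1 changed by between -0.33 and 0.31 in WT and between -0.27 and 0.77 in Nr4a-TKO. Of 10 PP2A subunits, the scaffold subunit Ppp2r1b rose in both genotypes, by 1.70 and 1.27, and the regulatory subunit Ppp2r5c fell in WT by 1.19 on the log2 scale. None of the 10 was more than 2-fold apart between the genotypes.

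The genes most like each member over the 4 arrays were found by the root mean square difference of log2 signals, each centred on its own mean, among 19241 genes with a symbol. With 4 arrays this is a description. For Egr2 they were Vegfa (0.04), Smyd2 (0.04) and Cinp (0.11), and for Egr1 they were Aebp2, A430093F15Rik and Eif2b5. Egr3 was closest to Rpusd2, Nfatc1, which encodes a transcription factor of antigen receptor signalling, and Sla, at 0.04 to 0.07. Nab2 was closest to Alg9, Fam98a and Zmiz2, Ier2 to Timm22, 4931440J10Rik and 4930431P19Rik, and Ier5 to Zmym1, Cd6 and Efnb3. Among the members, Ier2 and Ier5 were the closest pair, at 0.12, and Egr1 and Egr3 followed at 0.18. Ier3 was left out of this, since 3 of its 4 values are the floor.

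Markers were read to check the labelled cells. All 7 T cell markers and all 7 naive T cell markers were well above background on every array. Of the naive markers, 6 fell in WT and 7 in Nr4a-TKO at 3 h, while none was more than 2-fold apart between the genotypes. The 8 B cell markers were also well above background on every array, and the log2 of their summed level was 10.27 in WT naive T, 10.77 in Nr4a-TKO naive T, 9.89 in WT at 3 h and 10.77 in Nr4a-TKO at 3 h. At 3 h, Cd79a, H2-Aa and H2-Ab1 of these were more than 2-fold higher in Nr4a-TKO, and in naive T cells H2-Aa was, with 6.59 and 8.20. Foxp3, whose positive cells the sort left out, read 7.41 in WT naive T, 6.10 in Nr4a-TKO naive T, 7.52 in WT at 3 h and 6.17 in Nr4a-TKO at 3 h. Of the other regulatory T cell genes listed, Ikzf2 had a log2 difference of Nr4a-TKO over WT of -1.37 in naive T cells and 0.16 at 3 h, Ctla4 of 0.83 and 0.06, and Il2ra of -0.07 and 0.05. Of 6 memory T cell markers, Id2 was more than 2-fold higher and S100a4 more than 2-fold lower in naive Nr4a-TKO cells, and Cd44 and Cxcr3 were higher at 3 h. Of 9 myeloid markers, 6 to 8 were well above background on each array, while the macrophage marker Adgre1 was not on any. Itgam was between 14.98 and 15.14 and Csf1r between 11.15 and 11.75. Lyz2, Fcgr3 and Itgax were far dimmer, between 3.79 and 4.78, with S100a8 between 3.37 and 4.22 and S100a9 between 5.28 and 6.75. The log2 of the summed level of the 9 was between 15.08 and 15.28, most of which is Itgam. Cd14, a myeloid receptor gene, read 6.66 in WT naive T, 3.97 in Nr4a-TKO naive T and 4.58 in Nr4a-TKO at 3 h, and was not well above background in WT at 3 h. Of 4 erythroid markers, 3 were well above background on every array, with Hba-a1 between 6.46 and 6.97, and the globin gene Hbb-b1 was on none. The log2 of their summed level was between 7.24 and 7.60. Both CD8 T cell markers were also well above background on every array, with a log2 summed level between 6.22 and 7.15. B cells also express Egr1, Egr2, Egr3 and the Ier genes, and the part of these marker differences in the members' values was not tested.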

How the data were processed

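RNA of the 4 conditions was hybridised to Agilent mouse arrays in 1 colour and read with Agilent Feature Extraction 11.5.1.1, as the submitters' processing notes name it. The authors deposited, for each array, the mean intensity and the local background intensity of every spot, a processed intensity and flags, with probe positions on mm9. The deposited value table is on the log2 scale and was checked against the processed intensity, from whose log2 it differs by a constant per array near the 75th percentile, while the methods name RMA.

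Following RMA, limma 3.58.1 in R 4.3.3 applied normexp background correction with an offset of 0, quantile normalization over the 4 arrays and log2, and spots of a probe were averaged. Control spots and between 115 and 160 outlier spots per array were left out. Later steps used Python 3.11.15, pandas 2.3.3, numpy 2.4.6 and matplotlib 3.10.9. Names were updated through RefSeq of GRCm38.p6: 41700 probes kept a current symbol, 519 matched a synonym and 1517 a transcript, 8038 kept the name of the file and 4831 have none. A gene took its probe with the highest mean. Signals not well above background were set no lower than the array's dimmest probe that was, and a difference needed at least 1 array well above background. The threshold was 2-fold, without p-values. In data simulated from the array of WT naive T, all 50 probes at each of the log2 changes 1.5, 2, 3 and 4 were recovered. Of 36256 unchanged probes, 3 passed 2-fold. The changed probes were all bright and well above background, and all their true changes were past 2-fold. The noise was set from repeated spots within an array. Recovery of dim probes and of changes near 2-fold was therefore not tested, nor was spread between mice or cultures.

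The members and the lists were chosen with earlier results of these data known. From a list, at most the 3 largest changes per comparison were named, with the exceptions given, and for each member the 3 genes most like it. The alternatives were a normexp offset of 50, the deposited values, processed intensity scaled to the 75th percentile, leaving out the background correction, averaging a gene's probes, stricter and no filters on dim probes, and thresholds of 1.5-fold and 3-fold. Comparisons that share an array are not independent. Protein sequences were not used here. A gene of the lists is not reported here, and the counts of its list leave it out.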

Additional observations from a re-analysis of the deposited data

How the results depend on the processing

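The rise of Egr1 and Egr2 past 2-fold in both genotypes, and of Egr3 in WT, held under the 5 other scalings and probe rules and both filters. Egr1 and Egr2 each have 1 probe, well above background on every array, so averaging probes and the filters could not alter their values. The deposited values and the scaling to the 75th percentile are nearly the same setting. Over all these settings, the change of Egr2 was between 2.76 and 2.96 in WT and between 2.41 and 2.59 in Nr4a-TKO. The count of members more than 2-fold higher was between 3 and 4 in WT, beside 4.12% to 10.2% of all genes. It was between 2 and 4 in Nr4a-TKO, beside 3.57% to 9.56% of all genes. No member was more than 2-fold apart between the genotypes or in the difference of the changes. Of all genes, 0.319% to 2.87% were so between the genotypes, by stage and direction, and 0.396% to 5.5% in that difference, by direction. With a threshold of 1.5-fold, 5 members rose over the 3 h of culture within Nr4a-TKO, beside 16.3% of all genes. In naive T, 1 member was higher in Nr4a-TKO than in WT, beside 5.18% of all genes, and at 3 h 0 were, beside 5.27%. A smaller change in Nr4a-TKO was found for 1 member, beside 7.08% of all genes. With 3-fold, 1 member rose within Nr4a-TKO, beside 2.65% of all genes. The median change of the members in WT became 0.95 without a filter on dim probes, where Ier3 enters, and that in Nr4a-TKO became 1.04 after scaling to the 75th percentile and 1.06 in the deposited values. Of 222 values of single members under an alternative, 23 moved by more than the SD from repeated spots. These were values of Egr3, Nab2, Ier2, Ier3 and Ier5. None was of Egr1 or Egr2, whose values could not move when probes were averaged or filters changed. The causes were not tested. Signal over background limits Ier3 and the dimmer probes of Ier2 and Egr3. Another offset alters the share of all genes called: with an offset of 50, 4.12% were more than 2-fold higher in WT. No paired analysis was possible because each condition has 1 array, and for the same reason no array could be left out.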
